A study of Homo sapiens with 2 samples.

Results

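The Tribbles genes TRIB1, TRIB2 and TRIB3 encode a small family of pseudokinases. The 3 members were taken by gene symbol from the 25343 entries of each library, with no filter on their values. Earlier results of these data were known at that point. RNA came from Huh7, an established human cell line from a well differentiated hepatocellular carcinoma. Wells received 500000 cells, and from the next day the medium held either 4.5 g/L glucose, called high glucose here, or 0.45 g/L, called low glucose, over a treatment of 6 days in which live cells were reseeded at high confluency. Both media were DMEM-based, and no other agent or genetic change is given for either group. Each medium is represented by 1 library of this 1 line, so no difference given here has a replicate check or a p-value. Levels are TPM, the share of each gene among all transcripts after correction for transcript length, and the number of reads behind them is unknown. The RNA is from whole cultures, in which more RNA per cell and more cells carrying a transcript cannot be told apart.

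Tribbles proteins have a kinase fold with little or no catalytic activity and act as scaffolds. Their C-terminal tail binds the ubiquitin ligase COP1 and MAP kinase kinases, so that a substrate held by the pseudokinase is brought to the ligase. TRIB1 and TRIB2 are best known for the degradation of the transcription factor C/EBPalpha, and TRIB1 is linked to lipid production in the liver. TRIB3 is a stress gene induced by ATF4 and CHOP (the product of DDIT3), the transcription factors of the integrated stress response, and has been described as binding AKT kinases and ATF4 itself.

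In low glucose, TRIB3 was several-fold higher, TRIB1 was higher by less than 2-fold, and TRIB2 was at a low level in both media and lower in low glucose. TRIB3 was measured at 48.5 TPM with high and 335 TPM with low glucose, a ratio of 6.91. TRIB1 stood at 25.6 and 45.3 TPM, a ratio of 1.77. TRIB2 stood at 1.57 and 0.40 TPM, a ratio of 0.255. The order of the levels was the same in both libraries, with TRIB3 above TRIB1 and TRIB1 above TRIB2, and with 1 library each no spread can be set beside it. The distance between TRIB3 and TRIB1 was wider in low glucose, where the TPM of TRIB3 was 7.41 times that of TRIB1, against 1.89 times in high glucose. The family summed to 75.7 TPM with high and 381 TPM with low glucose, of which TRIB3 made up 64.1% and 88.0%.

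**Figure D1:**
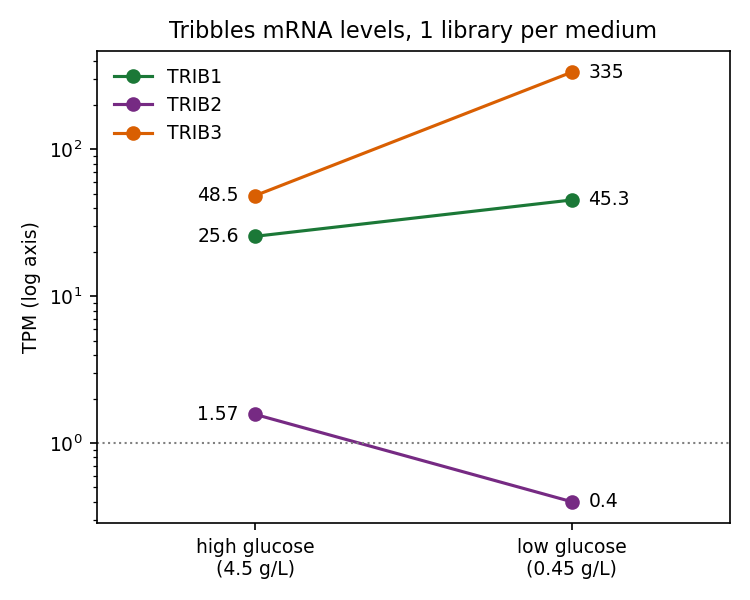
TPM (y axis, log scale) of TRIB1, TRIB2 and TRIB3 in the high and low glucose libraries, with 1 point per library and the value printed beside it; the dotted line marks 1 TPM. TRIB3 goes from 48.5 to 335 TPM, TRIB1 from 25.6 to 45.3 TPM, and TRIB2 from 1.57 to 0.40 TPM.

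Every difference is log2(TPM + 1) in low glucose less log2(TPM + 1) in high glucose, a scale that understates the differences of low genes. Genes with a mean of at least 1 TPM over both libraries were compared, 13745 in all, and a gene was called 2-fold higher from a difference of 1 upward and 2-fold lower from -1 downward. By this rule 3.65% of the genes compared were higher and 1.10% lower in low glucose, and the median difference was 0.05. Of the 3 Tribbles genes, 2 reached the minimum level. TRIB3 was called higher, with a difference of 2.76, and TRIB1 was not called, with a difference of 0.80. TRIB2, with a mean of 0.985 TPM, lay just under the minimum, and its difference of -0.88 is given for description only.

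**Figure D2:**
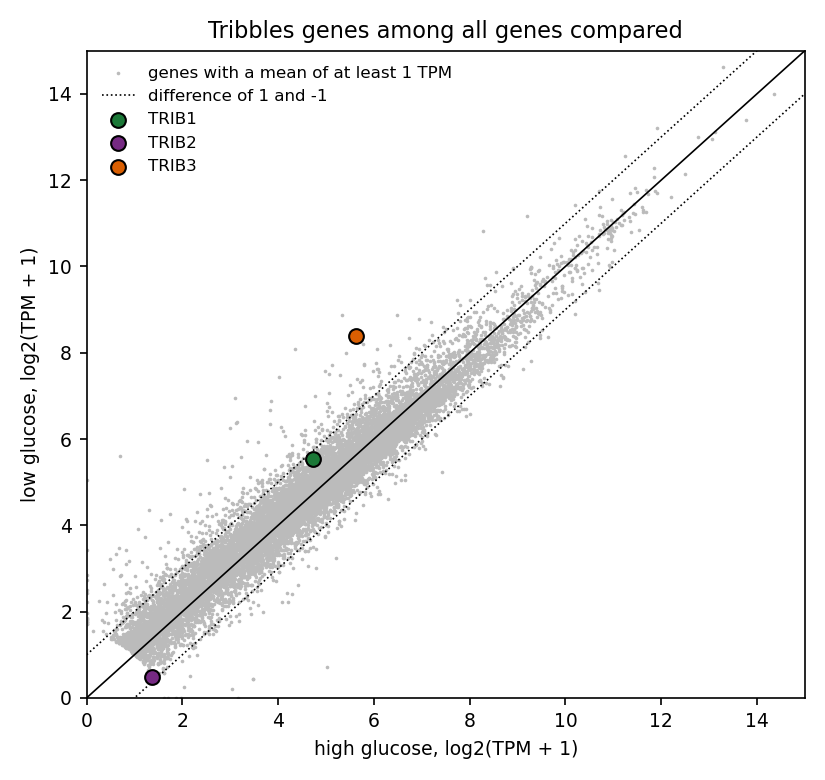
Each grey point is a gene with a mean of at least 1 TPM, placed by its log2(TPM + 1) in high (x axis) and low glucose (y axis); dotted lines mark differences of 1 and -1, and coloured points are the Tribbles genes, TRIB2 lying below the minimum level. TRIB3 lies above the upper line at a difference of 2.76, TRIB1 between the lines at 0.80, and TRIB2 between the lines at -0.88.

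All 12 hepatocyte and hepatoma markers listed were detected and, like most genes compared, within 2-fold between the media, 8 lower and 4 higher in low glucose. They included AFP (20859 and 16441 TPM in high and low glucose) and ALB (8528 and 7997 TPM). The differences ran from -0.99 for TTR (1351 and 682 TPM), close to the 2-fold limit, to 0.59 for FGB (617 and 927 TPM). Of 12 markers of other cell types, 6 were below the minimum level. They included the leukocyte marker PTPRC (0.83 and 0.50 TPM), the endothelial markers VWF and CDH5, the fibroblast marker DCN and KRT5, listed at 0 in both. The other 6 reached that level, among them EPCAM (45.02 and 59.11 TPM) and PECAM1, also an endothelial marker (1.35 and 1.25 TPM). The collagen genes COL1A1 (1.06 and 4.03 TPM, called higher) and COL1A2 (18.7 and 24.6 TPM) reached it as well. The summed level of these 12 was 639 TPM with high and 328 TPM with low glucose, most of it from LYZ (lysozyme; 550 and 198 TPM), while CD68, the other myeloid marker listed, had 20.4 and 39.3 TPM. Any part of these transcripts in the Tribbles differences was not tested.

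TRIB3 (chromosome 20, 361308 to 378203 in the hg19 coordinates of the deposited entries, an interval that spans the whole gene with its exons and introns) was in the upper part of the expressed transcriptome in both media. In high glucose 79.5% of the entries above 0 had a lower TPM, and in low glucose 97.7%. Its place among all entries was 3693rd in high and 407th in low glucose. Only 19 of the genes compared, TRIB3 included, had a difference as large in that direction. At this level the pseudocount had little effect, with differences of 2.79 and 2.67 for pseudocounts of 0.1 and 5.

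One feature of the TRIB3 gene bears on its known control by ATF4 and CHOP, which bind composite C/EBP-ATF elements. The letters TGATGNAA, a core of such elements, were searched on both strands, where the opposite strand reads TTNCATCA. The longest TRIB3 transcript of GENCODE 29 holds 3 matches in its first exon, which is 553 bases long (GRCh38 chr20:380617-381169, plus strand). That exon lies wholly in the 5′ UTR of this transcript, since the start codon is in exon 2. The matches are spaced by 33 and 33 bases, and the 20 bases printed around each are identical. They are shown beside the matches in the RefSeq promoters (GRCh38.p14, 250 bases before to 50 after the gene start) of CHAC1, ASNS and ATF3, other stress genes of the same pathway. Capitals mark the 8 searched letters, and each sequence is on the strand of its gene.
TRIB3, chr20:380886-380905, plus strand: tccggtTTGCATCAcccgga
TRIB3, chr20:380919-380938, plus strand: tccggtTTGCATCAcccgga
TRIB3, chr20:380952-380971, plus strand: tccggtTTGCATCAcccgga
CHAC1, chr15:40953256-40953275, plus strand: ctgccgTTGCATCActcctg
ASNS, chr7:97872463-97872482, minus strand: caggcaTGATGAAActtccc
ATF3, chr1:212565210-212565229, plus strand: tcaggaTGATGGAAggctgt

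Among 74650 protein-coding GENCODE transcripts of at least that length, 8.92% held at least 1 match in their first 553 bases and 0.0429% held at least 3. Counted by gene, 16 of 19359 had a transcript with at least 3. The window and the limit of 3 were both taken from the TRIB3 transcript, so these shares describe it and are not a test. The other 3 TRIB3 transcripts and all 8 transcripts of TRIB1 and TRIB2 held none in that window. The RefSeq promoter table covers TRIB2 with 1 window and TRIB3 with 3 windows, and none of these 4 windows holds the letters. The TRIB3 windows start downstream of the TRIB3 sites printed above, so those sites lie upstream of the RefSeq starts of the gene. Of all 27305 genes in that table, 4.46% have a match. The share was 8 of 23 among the ATF4 and CHOP targets that the table covers, and 1 of 26 among other pseudokinases. It was 3 of 11 among the listed genes of ATF4, CHOP and the eIF2alpha pathway. The targets were listed because they are known ones, so their share is not independent evidence. A match describes the sequence and is not evidence of binding in these cells, and the absence of one says only that the letters are not in the window.

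The mRNAs of the factors that induce TRIB3 were not all 2-fold higher with it. Of 13 genes listed for this arm of the stress response, 4 were at least 2-fold higher and 0 lower, with a median difference of 0.75. The shares over all genes compared were 3.65% and 1.10%, and the list was written with earlier results of these data known. Only ATF3 had a larger difference than TRIB3 (3.25, from 7.79 to 82.7 TPM). DDIT3, which encodes the TRIB3 inducer CHOP, had 34.1 and 208 TPM, and TRIB3 exceeded it by a similar factor in both libraries, 1.42 in high and 1.61 in low glucose. ATF4, which is controlled largely at translation, had 658 and 904 TPM, a difference of 0.46. The TPM of TRIB3 was therefore 0.0738 times that of ATF4 in high and 0.371 times in low glucose. CEBPB, a partner of ATF4 at composite elements, had 133 and 283 TPM (1.08), and its relative CEBPG 76.3 and 139.9 TPM (0.87). The stress regulator gene NUPR1 was low, at 2.71 and 5.25 TPM.

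TRIB3 came closest to a gene at the other end of the same pathway. PPP1R15A (GADD34, the inducible subunit that directs a phosphatase to eIF2alpha) had 53.6 and 295 TPM and was, of all 25343 entries, the nearest to TRIB3 in log2(TPM + 1) over both libraries, at a Euclidean distance of 0.23. The next were NPPB, which encodes a natriuretic peptide (41.7 and 252.7 TPM, distance 0.46), and HERPUD1, a component of endoplasmic reticulum degradation (66.2 and 269.8 TPM, distance 0.54). With 2 libraries, nearness means only a like level in each. The constitutive phosphatase subunit gene PPP1R15B had 38.5 and 55.2 TPM (0.51). Among the kinases that phosphorylate eIF2alpha, EIF2AK3 (PERK, the sensor of the endoplasmic reticulum) had 20.7 and 39.1 TPM (0.89). The other kinase genes, EIF2AK1, EIF2AK2 and EIF2AK4, had differences of -0.39, -0.27 and -0.17, and EIF2S1, which encodes eIF2alpha, had -0.31.

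Among known ATF4 and CHOP targets, TRIB3 was in the upper part by its difference. Of 30 targets other than TRIB3, 29 reached the minimum level, with a median difference of 1.84. Of these, 21 were at least 2-fold higher and 0 lower, beside 3.65% and 1.10% of all genes compared. Only 5 had a higher difference than TRIB3 and 24 a lower one. The 5 were CHAC1, GDF15, STC2, SLC7A11 and SLC7A1, with differences from 2.85 to 3.85. By level, TRIB3 took place 16 of 31 in high glucose and place 8 of 31 in low glucose when set among the whole list. The list was written with the stress response of these libraries known and is not independent evidence of its direction.

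**Figure D3:**
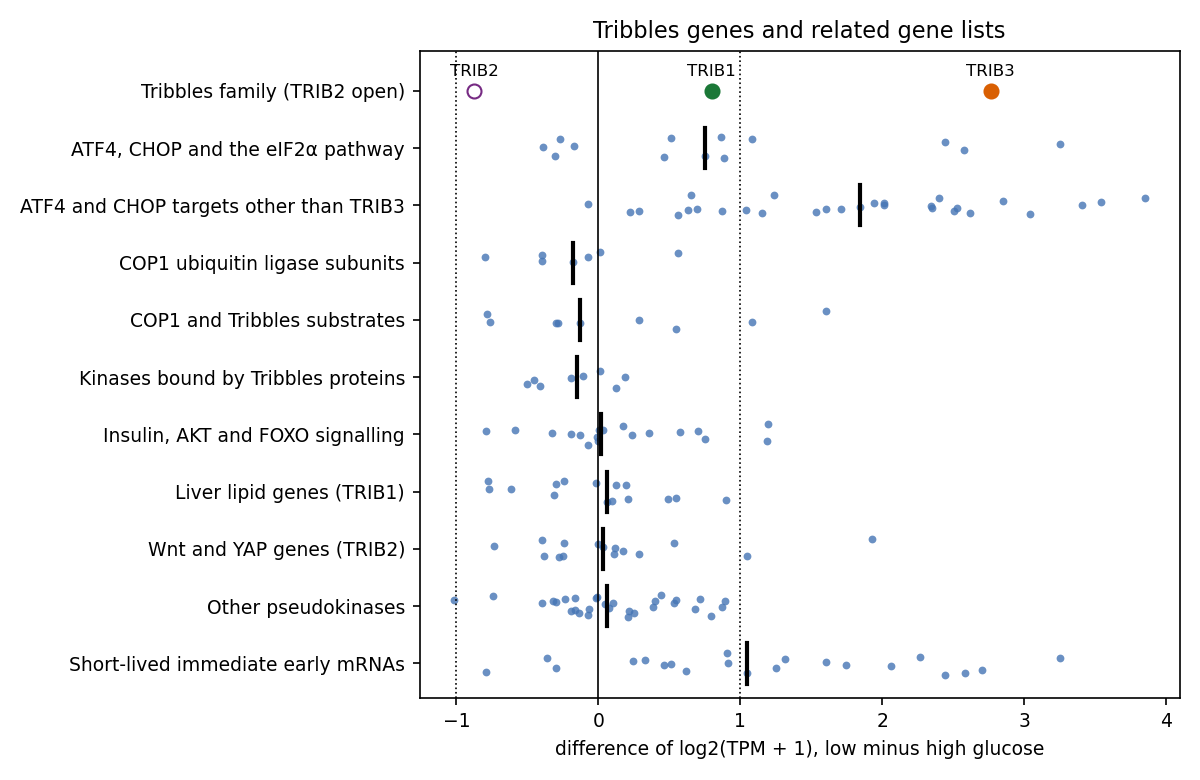
The x axis is log2(TPM + 1) in low glucose less that in high glucose, for each gene of 11 lists (rows); blue points are genes with a mean of at least 1 TPM, black bars are list medians, dotted lines mark differences of 1 and -1, and the open circle is TRIB2, below the minimum level. TRIB3 at 2.76 lies among the ATF4 and CHOP targets, whose median is 1.84, while the lists of ligase subunits, bound kinases and other pseudokinases centre near 0, with medians of -0.18, -0.15 and 0.06.

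In high glucose TRIB3 mRNA was within the range of its listed kinase partners, and in low glucose it was above all of them. The 8 genes compared whose kinases are described as bound by Tribbles proteins were all within 2-fold, with differences from -0.50 to 0.19. Most genes compared were also within 2-fold. TRIB3 was at 0.730 times the TPM of AKT1 in high glucose (AKT1: 66.5 TPM) and at 6.75 times in low glucose (49.7 TPM). Against AKT2 the factors were 1.02 and 8.07. MAP2K1 (70.0 and 64.7 TPM), which encodes MEK1, was above TRIB3 in high and below it in low glucose. TRIB1 was below MAP2K1 in both libraries. In the wider insulin, AKT and FOXO list, 2 of 18 genes compared were at least 2-fold higher and 0 lower, with a median of 0.02. Over all genes compared, 3.65% were called higher and 1.10% lower. The 2 of that list were IRS2 and IGFBP1, both of low level, and with a pseudocount of 5 the count was 0.

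All 7 subunit mRNAs of the ligase through which the family acts were within 2-fold between the media, with a median difference of -0.18. Most genes compared were also within 2-fold, with 3.65% called higher and 1.10% lower. Protein levels of the ligase were not measured. RFWD2, which encodes COP1, had 28.4 TPM in high glucose and 24.9 TPM in low glucose. The TPM of TRIB3 was 1.71 times that of RFWD2 in high and 13.5 times in low glucose, and that of TRIB1 was 0.903 and 1.82 times. TRIB1 thus went from below to above COP1 mRNA, and TRIB2 was below it in both. RBX1, the RING subunit, had the lowest difference of the ligase genes (160 and 91.7 TPM, -0.80), and DET1, an adaptor, the highest (4.27 and 6.79 TPM, 0.56).

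TRIB1 (chromosome 8, 126442563 to 126450647 in hg19, the interval of the whole gene) was expressed at a moderate level in both media. It exceeded 66.7% of the entries above 0 in high glucose and 78.0% in low glucose. A difference of 0.80 or more was found for 6.66% of the genes compared. The genes nearest to TRIB1 over both libraries were PNMA3 (25.9 and 45.7 TPM), the small nucleolar RNA host gene SNHG12 (26.1 and 45.2 TPM) and the protease inhibitor gene SERPINB9 (25.3 and 44.5 TPM), at distances of 0.02, 0.03 and 0.03.

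TRIB1 mRNA is known to be short-lived, like those of the immediate early genes. Of 24 such genes listed, 21 reached the minimum level, with a median difference of 1.05. Of these, 11 were at least 2-fold higher and 0 lower, beside 3.65% and 1.10% of all genes compared. ATF3, PPP1R15A and JUN, among those called higher, are also in other lists used here. TRIB1 lay below the median of the list, with 13 of the 21 at a higher difference and 8 at a lower one. By level it took place 13 of 25 in both libraries when set among the whole list.

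The best known target of TRIB1 and TRIB2, C/EBPalpha, and its relative C/EBPbeta differed in opposite directions at the mRNA level. CEBPA had 333 TPM in high glucose and 193 TPM in low glucose, a difference of -0.78 that was short of 2-fold, while CEBPB was called higher. The ratio of CEBPA to CEBPB was 2.50 in high and 0.682 in low glucose. The TPM of TRIB1 was 0.0770 times that of CEBPA in high and 0.234 times in low glucose. Of 9 genes whose proteins are degraded through Tribbles or COP1, 2 were at least 2-fold higher, CEBPB and the AP-1 subunit gene JUN (51.2 and 158 TPM, 1.61), and 0 were lower. Over all genes compared, 3.65% were called higher and 1.10% lower. ACACA, the acetyl-CoA carboxylase that TRIB3 directs to COP1, had 33.3 and 26.9 TPM (-0.30). ETV1 had 6.47 and 3.40 TPM (-0.76), and ETV4, ETV5, CRTC2 and MLXIPL had differences from -0.29 to 0.55. The protein levels on which the ligase acts were not measured. Of 15 liver lipid genes linked to TRIB1 and C/EBPalpha, 0 were called on the log2(TPM + 1) scale, with a median of 0.06. The 1 with a higher difference than TRIB1 was PPARGC1A, a coactivator of low level (1.71 and 4.05 TPM, difference 0.90), whose ratio of TPM was 2.37 and which was called higher with a pseudocount of 0.1.

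TRIB2 (chromosome 2, 12856998 to 12882858 in hg19, the interval of the whole gene) was at a low level in both libraries. Of the entries above 0, 28.6% were lower in high glucose and 16.2% in low glucose. Among the 2025 entries with a mean of 0.5 to 2 TPM, 33 (1.63%) had a difference as low as that of TRIB2, and the 5th and 95th percentiles were -0.55 and 0.86. The difference depended strongly on the pseudocount, at -1.74 with 0.1 and -0.28 with 5. The entry for the microRNA gene MIR3125 lies inside the TRIB2 interval and was listed at 0 in both libraries. The entries nearest to TRIB2 in level were OSMR-AS1 (1.54 and 0.33 TPM), the imprinted RNA H19 (1.46 and 0.45 TPM) and LOC100505942 (1.60 and 0.48 TPM), at distances of 0.08 each.

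TRIB2 has been linked to Wnt and YAP signalling in liver cancer. Of 17 genes listed for those pathways, 15 reached the minimum level, and all 15 had a higher difference than TRIB2. Of these, 2 were at least 2-fold higher and 0 lower, beside 3.65% and 1.10% of all genes compared, with a median of 0.03. The 2 were the YAP targets CYR61 (1.93) and CTGF (1.05), and under median-of-ratios and trimmed-mean scaling 1 gene was left.

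The Tribbles genes were also set among 37 other human pseudokinase genes. TRIB3 was at place 8 of 38 by TPM in high glucose and at place 1 in low glucose, above ERBB3, a receptor of the EGF receptor family that had 154 and 204 TPM. TRIB1 was at places 12 and 9 and TRIB2 at places 30 and 33. Of the 37, 30 reached the minimum level, with a median difference of 0.06 and a range from -1.02 to 0.89. On the log2(TPM + 1) scale 0 of these were called higher. Most genes compared were also within 2-fold, with 3.65% called higher and 1.10% lower. The highest of the 30 was NRBP2 (5.63 and 11.3 TPM), whose ratio of TPM was 2.01. TRIB3 thus had a higher difference than all 30, and TRIB1 a higher one than 28. The 1 pseudokinase gene called lower was ROR1, a receptor for Wnt ligands (5.37 and 2.15 TPM), which was also the 1 with a lower difference than TRIB2. This count was 0 with a pseudocount of 5 or when scaling left out the 50 most abundant genes.

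The entries beside TRIB3 on chromosome 20 were within 2-fold, as were most genes compared. RBCK1, a subunit of the linear ubiquitin ligase, starts 10.5 kb after TRIB3 and had 77.8 and 135 TPM (0.79). TBC1D20 had 52.5 and 65.7 TPM, NRSN2 40.6 and 40.0 TPM, and SOX12 33.6 and 40.3 TPM. Beside TRIB1, NSMCE2 ends 63.2 kb before the gene and had 27.2 and 28.7 TPM, and KIAA0196 had 29.6 and 26.8 TPM. On the other side of TRIB1 lie LINC00861 (0.02 and 0.13 TPM) and FAM84B (0.60 and 3.09 TPM, difference 1.35). The 4 entries nearest to TRIB2 were listed at 0 in both libraries.

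**Figure D4:**
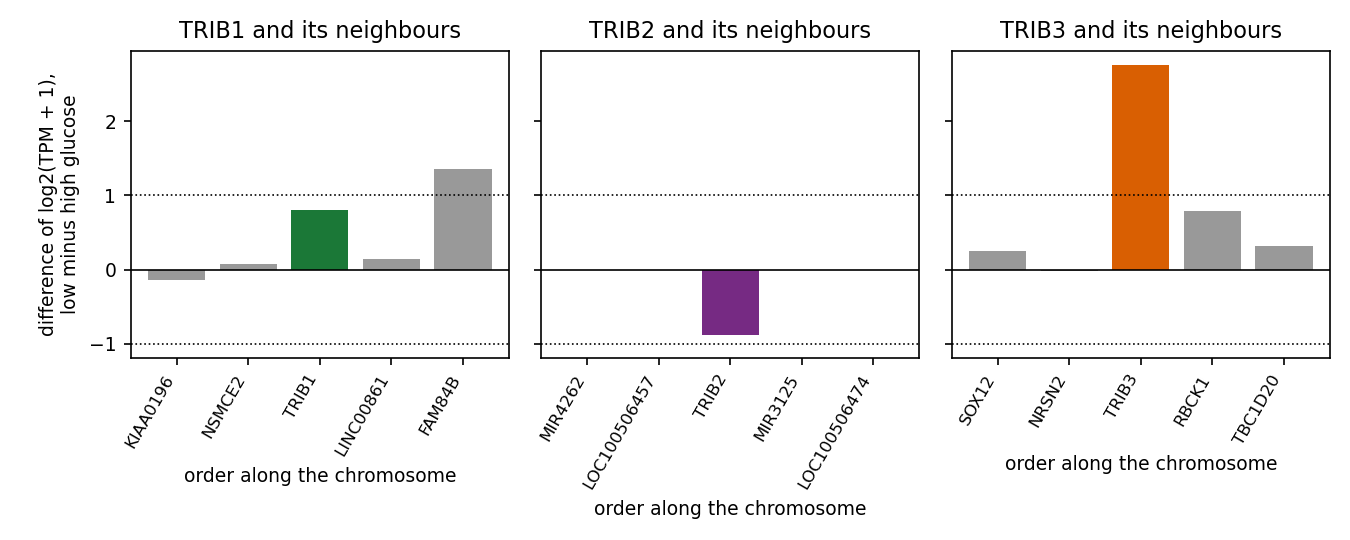
Bars give log2(TPM + 1) in low glucose less that in high glucose for each Tribbles gene (coloured) and the 2 entries on each side of it in chromosome order (grey); dotted lines mark 1 and -1, and a missing bar is a difference at or near 0. TRIB3 at 2.76 stands above its neighbours, of which RBCK1 at 0.79 is the highest, and FAM84B at 1.35 is above TRIB1 at 0.80.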

How the data were processed

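The authors deposited 1 TPM value for each gene, a unit named per the file headers, and the values sum to 1000000 in each library. The submitters' processing notes name cutadapt, RSEM 1.2.21 and hg19. For the aligner, annotation, strandedness and filters, the settings were not given in the sources used here. RSEM divides reads that map to several genes between them. TPM keeps no depth, so no counting interval is given.

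Differences of log2(TPM + 1) were computed over genes with a mean of at least 1 TPM. The calculation was checked on simulated data with large seeded differences in genes of at least 10 TPM and little noise. That check does not measure the error of 1 library per medium. The members, gene lists and alternatives were chosen with earlier results of these data known. Lists may share genes. Genes were named by rule, and some are given by count only: the members, all genes of lists with at most 13, the 4 most abundant and up to 6 largest differences past 2-fold of longer lists, the 3 nearest in level to each member, and the 2 neighbours on each side. Alternatives were 4 scalings, pseudocounts of 0.1 and 5, no filter, a minimum mean of 10 TPM, and limits of 1.5-fold and 3-fold. GENCODE 29 and RefSeq sequences are GRCh38, unlike the hg19 entries, and no coordinates were converted. Calculations used Python 3.11.15, numpy 2.4.6 and pandas 2.3.3.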

Additional observations from a re-analysis of the deposited data

How the results depend on the processing

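TRIB3 stayed at least 2-fold higher under all 10 alternatives, with differences from 2.67 to 2.79, which also passed the 3-fold threshold. TRIB1 ranged from 0.71 to 0.83 and was called only at the 1.5-fold threshold, where its difference is the same 0.80. TRIB2 kept its direction, at -1.74 (called lower) with a pseudocount of 0.1 and -0.28 with 5, and was called lower at the 1.5-fold threshold with the same -0.88. No value of TRIB2 was taken with a minimum mean of 10 TPM, which it does not reach. The scalings moved differences by -0.06 to 0.03. Over all genes, 502 were higher and 151 lower. With a pseudocount of 5 there were 234 and 79, at 1.5-fold 1786 and 835, at 3-fold 119 and 22, and with a mean of at least 10 TPM 293 were higher. Of 200 counts of list members recomputed, 176 were within 1.5 times the count given and 24 were not, 3 of these under a scaling. In most of the 176 both counts were 0, which was scored as within 1.5 times, so this share overstates the stability of the other counts. No paired analysis was possible because each medium has 1 library. Depth is unknown, so the counting error of low values such as those of TRIB2 could not be given.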

Other observations

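Outside the stress and Tribbles lists, a few values among the named genes were large. LYZ, which encodes the antibacterial enzyme lysozyme and was listed as a marker of myeloid cells, was measured at 550 TPM with high and 198 TPM with low glucose (difference -1.47) in cultures where the leukocyte marker PTPRC was below 1 TPM. CD68, another myeloid marker of that list, went the other way, at 20.4 and 39.3 TPM (0.91). COL1A1, a chain of type I collagen, stood at 1.06 and 4.03 TPM (1.29), while COL1A2, the other chain, stood at 18.7 and 24.6 TPM (0.37). NPPB, best known as a natriuretic peptide gene of heart muscle, stood at 41.7 and 252.7 TPM (2.57) and was found only through its nearness to TRIB3 in level. These values have no replicate check.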
